A study of Homo sapiens with 16 samples.

Results

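The respiratory chain subunit genes of MUTZ-3 cells are described here as a group of 62 genes, 49 encoded in the nucleus and 13 in mitochondrial DNA. They were chosen by a rule on names, not by a measured change, from the 60623 genes in the count tables. Earlier results of these data were known when this rule was chosen. The names were NDUFA, NDUFB, NDUFC, NDUFS and NDUFV followed by a number for complex I, SDHA to SDHD for complex II, 8 UQCR genes for complex III, and every protein-coding gene of mitochondrial DNA. All 62 passed the required 10 counts in at least 3 libraries, as did 18597 of all genes. NDUFA7 held the fewest, with 6 to 39 counts, and reached 10 in 15 of 16 libraries. The nuclear genes comprised 7 core and 30 accessory subunits of complex I, 4 subunits of complex II and 8 of complex III. The 30 include NDUFA4, which was placed there by its name although it is now known to belong to complex IV. The mitochondrial genes comprised 7 subunits of complex I, 1 of complex III, 3 of complex IV and 2 of ATP synthase.

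MUTZ-3 is a myeloid leukemia line with an inversion of chromosome 3 that drives *EVI1* (listed as MECOM). RNA-Seq was carried out in 16 libraries with 1 library per condition. For PARP inhibition (PARPi), cells received olaparib at 10 µM, talazoparib at 1 µM or the vehicle DMSO for 12, 24 or 48 h, and untreated cells were taken at 0 h. For *EVI1* knockdown, cells were transduced with a lentivirus coding for a non-targeting control (NTC), shEVI1-2531 or shEVI1-2532, selected with puromycin and harvested at day 3 and day 6. A knockdown sample is therefore a selected pool of transduced cells, and all conditions share 1 cell line grown with GM-CSF and medium conditioned by another line. Since nothing in the labels names separate cultures, p-values measure only the spread between these libraries.

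The respiratory chain passes electrons from NADH through complex I, and from succinate through complex II, to complex III and complex IV, which hands them to oxygen. Complexes I, III and IV pump protons, and ATP synthase uses the proton gradient to make ATP. Mitochondrial DNA is transcribed as long precursors from both strands and cut at the tRNAs that separate its genes, whereas the nuclear subunits are transcribed one by one and their proteins imported. Complex I carries its electron path in core subunits, around which the accessory subunits are placed, and complex II has no mitochondrially encoded subunit. Acute myeloid leukemia cells are known for relying on oxidative phosphorylation.

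The libraries held 55999673 to 120716213 counts, and the smallest level they can show, 3 counts, was 0.0249 to 0.0536 CPM, which are counts scaled to a common library total. MECOM was at 42.4 and 44.2 CPM with NTC, 4.51 and 4.03 CPM with shEVI1-2532 and 12.3 and 18.5 CPM with shEVI1-2531. At 48 h it was 33.1% of DMSO with olaparib and 13.4% with talazoparib. The myeloid markers CD34, KIT, MPO, CD33, MECOM and CD14 were all detected and summed to 856 to 5399 CPM. Erythroid, epithelial and fibroblast markers were at or near 0, with summed levels of at most 0.166, 0.126 and 0.137 CPM, and none of their 10 genes passed the count limit. The 3 T cell markers summed to 1.61 to 10.6 CPM and the 3 B cell markers to 8.38 to 20.6 CPM. The monocyte marker CD14 was at 2.86 CPM with DMSO and 58.3 and 82.2 CPM with olaparib and talazoparib at 48 h, and at 0.687 CPM with NTC and 23.8 CPM with shEVI1-2532 at day 6. The progenitor marker CD34 was at 432 CPM with DMSO and 138 and 94.5 CPM with the inhibitors at 48 h, and at 765 CPM with NTC and 3.37 CPM with shEVI1-2532 at day 6. The part of these markers in the values that follow was not tested, and in bulk samples fewer cells of a type and less RNA per cell cannot be told apart.

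Promoter sequences were available for 41 of the 49 nuclear genes in RefSeq (GRCh38.p14). Those without an entry included UQCRB and NDUFB5. The 250 bases before the start were searched on both strands for the letters of motifs of 3 factors known for nuclear respiratory genes, CCGGAAG for ETS factors such as GABPA, GCATGCGC for NRF1 and AAGATGG for YY1. The ETS letters stood before 10 of the 41 genes (24.4%) and before 10.2% of the 27305 genes in that table. For the NRF1 letters this was 7 genes (17.1%) against 3.22%, and for the YY1 letters 2 genes (4.88%) against 4.49%. A match describes letters and not a bound site. The sequences that follow belong to SDHB and SDHD, which rose after *EVI1* knockdown with shEVI1-2532, and NDUFS1 and NDUFB4, which fell. They lie at chr1:17054171-17054282 on the minus strand, chr11:112086623-112086823 on the plus strand, chr2:206159510-206159694 on the minus strand and chr3:120596086-120596327 on the plus strand, and are the bases of that window outside the gene's span in the count tables, written 5′ to 3′ on the gene's strand. Capitals mark the ETS and NRF1 letters in either direction. SDHB also has the ETS letters, 128 bases before its start, which lie outside the bases printed.
SDHB: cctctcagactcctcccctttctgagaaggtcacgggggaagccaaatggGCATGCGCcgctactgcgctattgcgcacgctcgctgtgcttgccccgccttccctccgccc
SDHD: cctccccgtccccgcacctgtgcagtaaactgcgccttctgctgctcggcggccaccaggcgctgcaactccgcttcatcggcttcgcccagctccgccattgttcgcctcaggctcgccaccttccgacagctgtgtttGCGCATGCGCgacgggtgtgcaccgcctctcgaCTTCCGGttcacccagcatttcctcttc
NDUFS1: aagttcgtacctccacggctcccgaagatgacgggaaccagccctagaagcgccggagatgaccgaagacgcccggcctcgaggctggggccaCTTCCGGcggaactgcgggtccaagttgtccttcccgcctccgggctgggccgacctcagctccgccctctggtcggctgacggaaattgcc
NDUFB4: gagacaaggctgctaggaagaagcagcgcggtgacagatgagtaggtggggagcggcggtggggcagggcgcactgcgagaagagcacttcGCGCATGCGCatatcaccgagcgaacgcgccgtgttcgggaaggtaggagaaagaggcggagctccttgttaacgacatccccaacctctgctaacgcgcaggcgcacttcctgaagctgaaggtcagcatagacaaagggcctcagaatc
The NRF1 letters occurred in both directions, overlapping each other, before SDHD and NDUFB4, which moved in opposite directions.

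Per kilobase of annotated exon, every mitochondrial gene lay above every nuclear gene. This compares levels between genes by mean CPM over 16 libraries, with GENCODE v29 exons. The length joins the exons of all annotated transcripts of a gene, for UQCRB 9715 bases, which is its whole span. The order of nuclear and mitochondrial genes rests on this choice of length, and other lengths were not tried. The 3 complex IV subunits led with 4423 (MT-CO3), 4293 (MT-CO2) and 4161 (MT-CO1) CPM per kb, and MT-ND6, the only subunit coded on the other strand, was lowest with 620.1 CPM per kb. The highest nuclear gene, NDUFS5, an accessory subunit of complex I, reached 365 CPM per kb. In mean CPM, the most abundant nuclear genes were UQCRC2 (392), a core protein of complex III, UQCRH (356), its hinge protein, and NDUFA4 (309.7), which is now known to belong to complex IV. The least abundant were NDUFA7 (0.275), NDUFV2 (0.814), which carries an iron-sulfur cluster of complex I, and NDUFA13 (1.098). All 3 share their strand with an overlapping gene in the annotation, as do 20 of the 49 nuclear genes in all, and for NDUFV2 the pseudogene rows held 67.9% of the counts of gene and pseudogene together. Whether reads in shared stretches were counted is not stated, so these low levels are uncertain. For SDHA, the catalytic subunit of complex II, pseudogene rows held 18.5%.

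**Figure D1:**
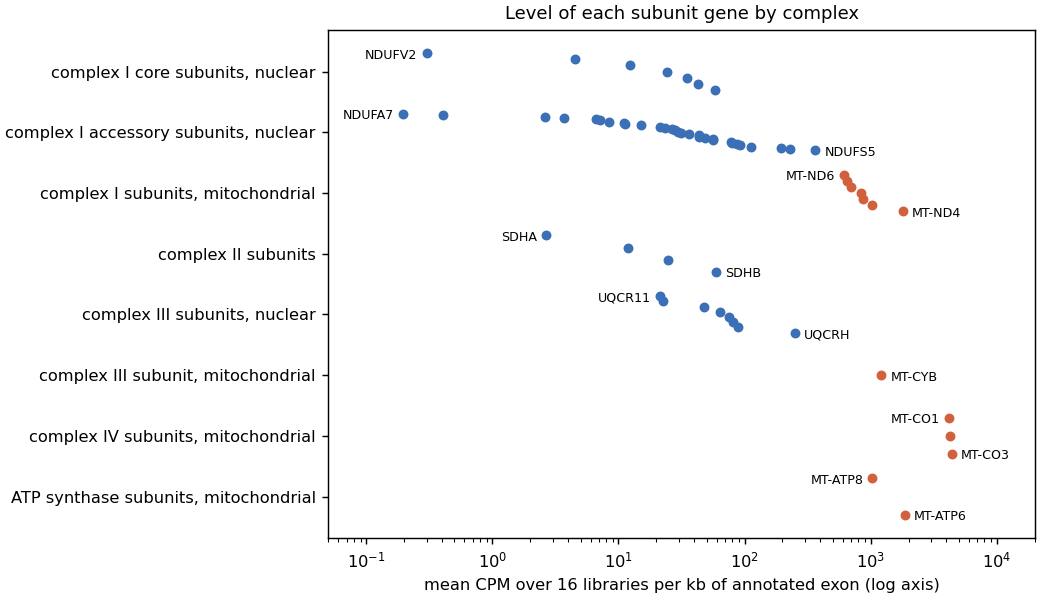
Mean CPM per kilobase of annotated exon over 16 libraries (log axis) for each gene, grouped by complex, with nuclear genes in blue and mitochondrial genes in orange. The 13 mitochondrial genes lie between 620.1 and 4423 CPM per kb, all above NDUFS5 with 365, and NDUFA7, NDUFA13 and NDUFV2 lie lowest.

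Mitochondrial genes overlap too. MT-ATP8 and MT-ATP6, the ATP synthase subunits, share 46 bases at chrMT:8527-8572 (GRCh38, plus strand), which is 22.2% of the 207 bases of MT-ATP8. The shared stretch is shown because a read inside it belongs to both genes, with the start codon of MT-ATP6 and the stop codon of MT-ATP8 in capitals.
Shared by MT-ATP8 and MT-ATP6: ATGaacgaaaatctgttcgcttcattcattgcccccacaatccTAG
Pseudogene rows held 13.9% of the counts of MT-ATP6 and its nuclear copies, and at most 4.28% for the other 12 mitochondrial genes.

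Control libraries differed from each other in the mitochondrial genes. By CPM on library totals, the median difference for 2 pairs of controls was larger than in 9 of the 10 treated libraries. The 13 genes took 3.03% of the counts of the untreated library and 1.597%, 1.72% and 1.73% with DMSO at 12, 24 and 48 h. All 13 were lower with DMSO at 12 h than in the untreated library, with a median log2 ratio of -0.90, while the 49 nuclear genes had a median of 0.11. NTC moved the other way between days. From day 3 to day 6 all 13 mitochondrial genes were higher (median 0.52), and 36 of 49 nuclear genes were lower (median -0.43, with 0.17 over all genes). With libraries scaled to the bulk of their genes (TMM), as in the tests below, this mitochondrial median was 0.34. That is less than 0.87 and 0.42 with shEVI1-2532 at day 3 and day 6 and 0.41 with talazoparib at 48 h. Each of these ratios compares 2 libraries and has no replicate. The mitochondrial rRNA genes MT-RNR1 and MT-RNR2, whose transcripts an mRNA selection is meant to remove, took 0.167% to 0.856% of the counts, and were higher than in the matched control in all 10 treated libraries.

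**Figure D2:**
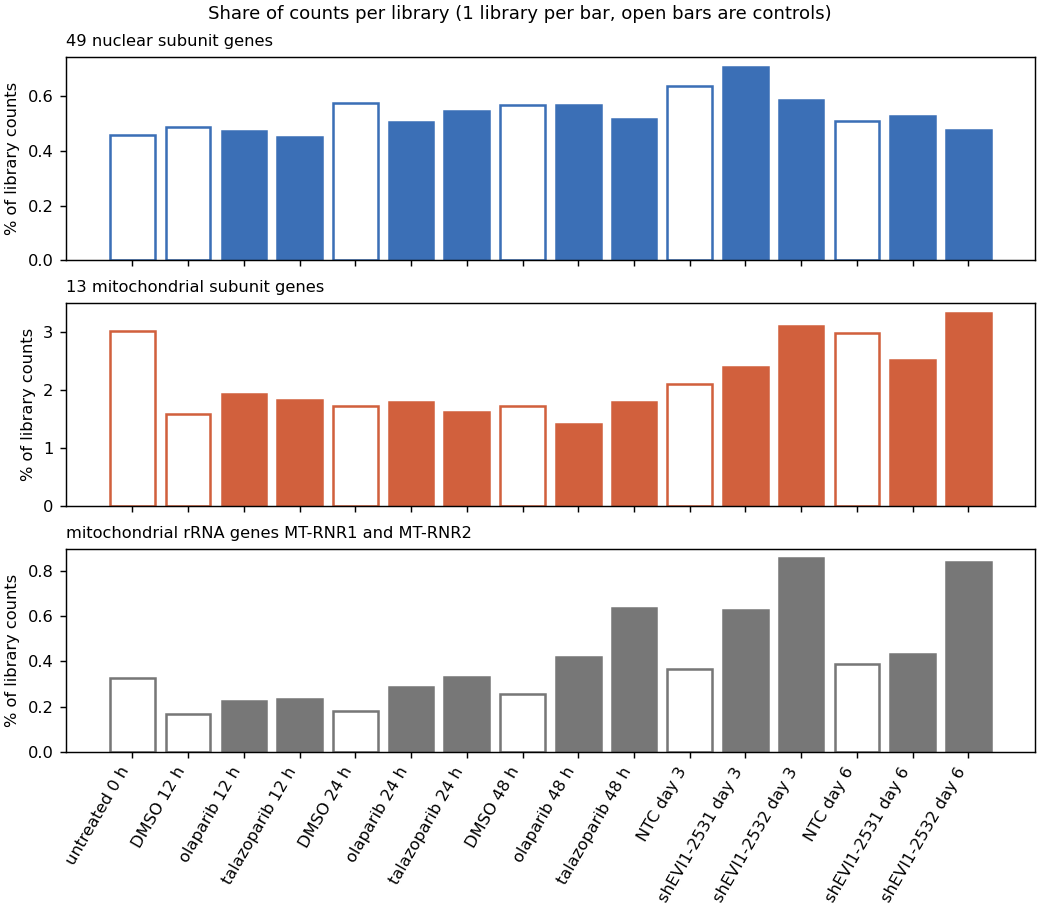
Percent of each library's counts in the 49 nuclear subunit genes (top), the 13 mitochondrial subunit genes (middle) and the mitochondrial rRNA genes (bottom), with 1 library per bar and controls as open bars. The mitochondrial share runs from 1.42% to 3.34%, and the untreated library with 3.03% stands apart from the DMSO libraries.

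The first comparison asks how PARPi changed the subunit genes. Averaged over 12, 24 and 48 h, no subunit gene passed the test (0 of 49 nuclear and 0 of 13 mitochondrial, quasi-likelihood test of edgeR, adjusted by Benjamini-Hochberg over 17218 genes). In that test 3.16% of all genes were called higher and 1.01% lower. Its model gives each inhibitor the same effect at all hours, so an effect that changes with time counts as spread between libraries. At an unadjusted p under 0.05, 4 of the 62 were higher and 7 lower, against 18.1% and 17.1% of all genes. DESeq2 also called 0 of the 62, where it called 10.7% of all genes higher and 9.52% lower. Without the 12 h libraries 1 of the 62 passed, UQCRB, at 0.63 (adjusted p = 0.0314), against 12.4% of all genes higher and 10.2% lower. The median log2 fold change was -0.05 over the nuclear and 0.16 over the mitochondrial genes, against -0.0064 over all genes tested. These fold changes rest on TMM, which scales libraries to the bulk of their genes. Ratios of CPM on library totals shifted all genes at 48 h, with medians of -0.18 for olaparib and -0.26 for talazoparib, and are to be read against these values.

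By role, all 7 nuclear core subunits of complex I had mean fold changes below 0 on the TMM scale (median -0.21), the lowest being NDUFV2 at -0.32 ± 0.19 (SE, adjusted p = 0.255, quasi-likelihood test of edgeR). Of the 30 accessory subunits 15 lay above and 15 below 0 on that scale, with NDUFA9, which sits at the ubiquinone site, farthest from 0 at -0.35 ± 0.14 (adjusted p = 0.112). Complex II stayed within -0.11 (SDHA) and 0.02 (SDHC). In complex III, UQCRB, a subunit at the ubiquinone site, had the largest value at 0.41 ± 0.17 (adjusted p = 0.121), while 6 of 8 were below 0. All 7 mitochondrial complex I subunits were above 0, led by MT-ND3 at 0.37 ± 0.13 (adjusted p = 0.0852). The farthest of the other mitochondrial genes were MT-CO1 at 0.20 ± 0.13, MT-CYB at 0.15 ± 0.13 and MT-ATP8 at -0.10 ± 0.12, none of which passed. Of the most and least abundant nuclear genes, NDUFA4 was at 0.13, UQCRH at 0.07, UQCRC2 at -0.07, NDUFA7 at -0.21 and NDUFA13 at 0.04, and UQCRH and NDUFA13 changed sign on library totals.

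Lower in all 6 inhibitor libraries than in DMSO of the same hour, by CPM, were 15 of 49 nuclear genes, NDUFS1, NDUFS3, NDUFS6, NDUFA5, NDUFA6, NDUFA8, NDUFA9, NDUFA12, NDUFB4, NDUFB6, NDUFB9, SDHD, UQCR10, UQCRC2 and UQCRFS1. Over all genes the share was 21.0%. Higher in all 6 were NDUFV3 and MT-ND3, against 15.1% of all genes. These counts moved with the scaling. On the TMM scale 6 nuclear genes stayed lower in all 6, NDUFS1, NDUFS3, NDUFS6, NDUFA5, NDUFA9 and UQCRFS1, against 18.4% of all genes. On that scale NDUFV3 and 5 mitochondrial genes, MT-ND3, MT-ND4, MT-ND5, MT-ND6 and MT-CO1, were higher in all 6, against 18.3%. The DMSO library of an hour serves both inhibitors, so these 6 ratios are not independent.

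**Figure D3:**
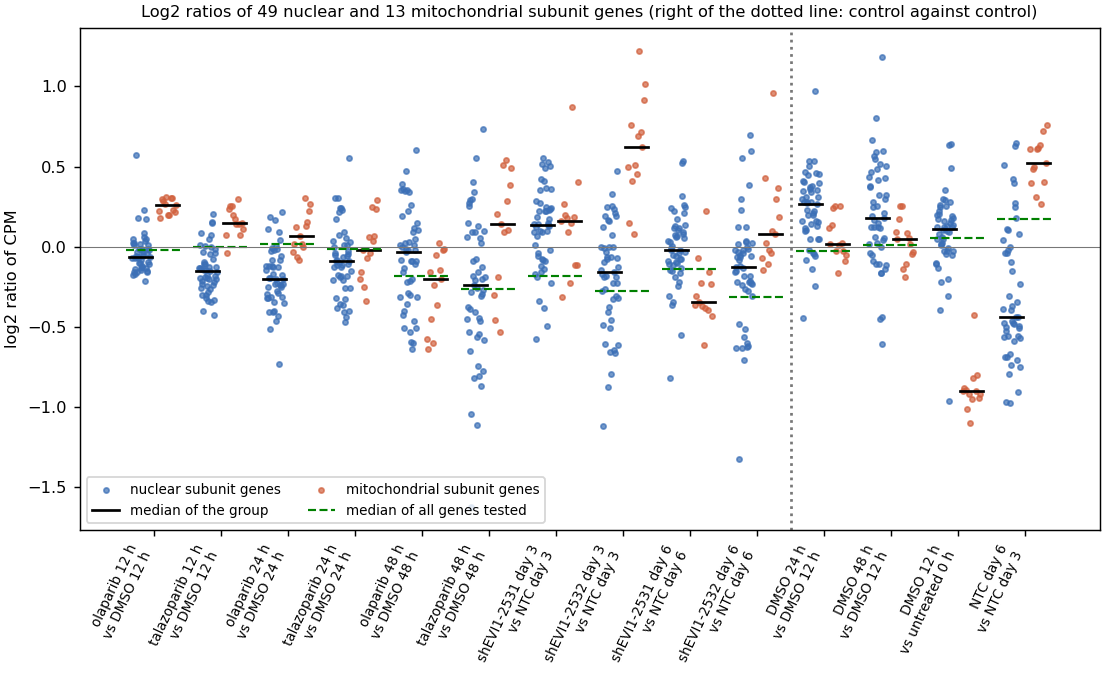
Log2 ratio of CPM for each of 49 nuclear (blue) and 13 mitochondrial (orange) genes in 10 treated libraries against the matched control, and for 4 pairs of controls right of the dotted line. Black bars are group medians and dashed green lines the median of all genes. The mitochondrial median is 0.62 with shEVI1-2532 at day 3 and -0.90 for DMSO at 12 h against the untreated library.

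The inhibitor effect moved upwards with time for 5 nuclear subunit genes, UQCRB, NDUFC2, NDUFB3, NDUFB5 and NDUFA2. In the other direction 0 of 62 passed. By CPM, none of the 5 lay above DMSO at 12 h with either inhibitor. The slope test asks how much the log2 effect of the inhibitors changes per doubling of hours, and over all genes 10.0% had a higher and 9.82% a lower slope, so a share of 5 in 49 is near the background. The median slope was 0.09 over the nuclear and -0.02 over the mitochondrial genes on the TMM scale, and on library totals the nuclear median turned to -0.02, with -0.12 over all genes. On the TMM scale 24 of 30 accessory subunits of complex I had slopes above 0 (median 0.11) and 7 of 7 nuclear core subunits below 0 (median -0.05), none of the core subunits passing. UQCRB was at 152, 157 and 186 CPM in the DMSO libraries, 150.2, 182 and 283 CPM with olaparib and 148, 231 and 310.4 CPM with talazoparib at 12, 24 and 48 h. The 3 groups were level at 12 h, and both inhibitor libraries stood above DMSO at 24 and 48 h. Its slope was 0.46 ± 0.13 (SE, adjusted p = 0.00475, edgeR's quasi-likelihood test), and its log2 ratio at 48 h was 0.60 (95% counting interval 0.57 to 0.64) with olaparib and 0.74 (95% counting interval 0.70 to 0.77) with talazoparib.

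The other 4 are accessory subunits of complex I. NDUFC2 was at 16.4, 19.98 and 21.9 CPM in the DMSO libraries, 14.9, 22.4 and 27.8 CPM with olaparib and 13.03, 23.4 and 32.2 CPM with talazoparib at 12, 24 and 48 h, with a slope of 0.45 ± 0.14 (adjusted p = 0.00822, edgeR). Its inhibitor libraries were below DMSO at 12 h and above it at 24 and 48 h. NDUFC2 shares its strand with the readthrough gene NDUFC2-KCTD14. NDUFB3 was at 60.5, 82.4 and 88.5 CPM in the DMSO libraries, 57.6, 82.1 and 123 CPM with olaparib and 52.97, 95.6 and 117 CPM with talazoparib at 12, 24 and 48 h, with a slope of 0.39 ± 0.13 (adjusted p = 0.0212, edgeR). Only at 48 h did both inhibitor libraries exceed DMSO. NDUFB5 had a slope of 0.38 and was at 169 CPM with DMSO, 216 with olaparib and 214 with talazoparib at 48 h. At 12 h it was at 96.7 CPM with DMSO, 90.2 with olaparib and 78.4 with talazoparib. NDUFA2 had a slope of 0.38 and was at 73.4, 96.3 and 88.9 CPM with DMSO, olaparib and talazoparib at 48 h. With both inhibitors NDUFA2 lay below DMSO at 12 h (47.6 and 44.4 against 53.1 CPM) and at 24 h (56.5 and 67.98 against 70.3 CPM). With DMSO, 36 of 49 nuclear genes were also higher at 48 than at 12 h. With scaling to the library total, or without the DMSO 12 h, DMSO 48 h or olaparib 48 h library, 0 nuclear genes passed upwards, and without talazoparib 12 h 1 did. The share of all genes that passed upwards in these settings was 6.34%, 4.95%, 1.28%, 3.82% and 7.60%. On library totals 2 nuclear genes and 1 mitochondrial gene passed downwards, against 14.1% of all genes.

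At 48 h the number of subunit genes beyond a set log2 ratio with both inhibitors turned on the scaling. By CPM on library totals, below -0.5 in both libraries were NDUFS1, NDUFV1, NDUFS6, NDUFA7 and UQCRC1 among the nuclear genes and MT-CO3 among the mitochondrial, that is 5 of 49 and 1 of 13, against 28.0% of all genes. Above 0.5 in both by CPM was UQCRB, against 16.2% of all genes. On the TMM scale 0 of the 62 lay below -0.5 in both, against 18.7% of all genes, and 7 nuclear genes lay above 0.5 in both, UQCRB, NDUFA2, NDUFA4, NDUFB1, NDUFB3, NDUFB5 and NDUFC2, against 22.0%. NDUFS1, the largest core subunit with iron-sulfur clusters, was at 185, 204 and 206 CPM in the DMSO libraries, 170.5, 177 and 142 CPM with olaparib and 169, 177 and 94.98 CPM with talazoparib at 12, 24 and 48 h. Its 6 inhibitor libraries lay between 94.98 and 177 CPM and all 3 DMSO libraries above them, but the untreated library, at 151 CPM, lay within that range. The log2 ratio of NDUFS1 was -1.11 (95% counting interval -1.16 to -1.07) for talazoparib at 48 h. NDUFV1, which binds NADH and flavin, was at 164 CPM with DMSO, 106 with olaparib and 93.9 with talazoparib at 48 h. UQCRC1, a core protein of complex III, was at 298, 209.6 and 175 CPM. None of the 3 passed a test, as their slopes were -0.24 ± 0.13 (adjusted p = 0.19), -0.29 ± 0.13 (adjusted p = 0.109) and -0.21 ± 0.13 (adjusted p = 0.27, all edgeR).

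Core and accessory subunits of complex I had different ratios within these libraries, and scaling does not change a difference between them. The median log2 ratio of the 7 nuclear core genes minus that of the 30 accessory genes was 0.05 and 0.16 at 12 h, -0.11 and -0.26 at 24 h and -0.29 and -0.42 at 48 h, for olaparib and talazoparib. DMSO at 48 h against 12 h gave -0.22, and NTC at day 6 against day 3 gave 0.68, so controls differed by as much. The values are descriptions of single libraries.

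**Figure D4:**
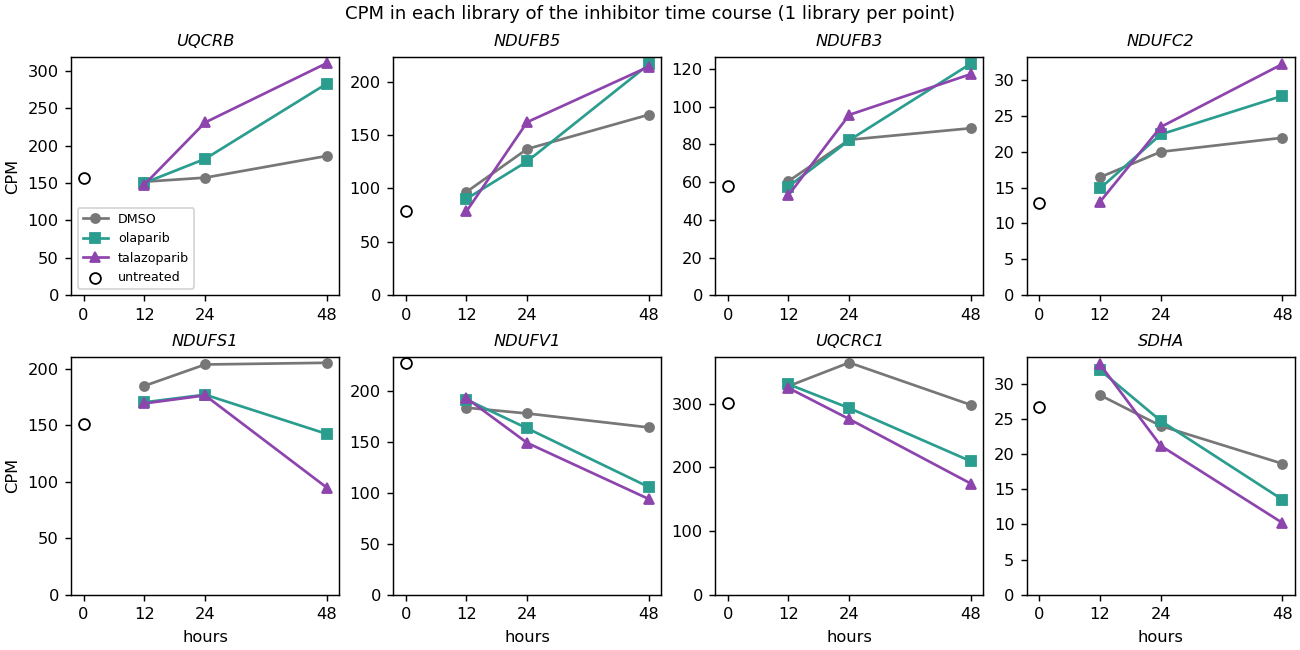
CPM of 8 subunit genes at 0, 12, 24 and 48 h, with 1 library per point, for DMSO (grey), olaparib (green) and talazoparib (purple), and the untreated library as an open circle. UQCRB, NDUFB5, NDUFB3 and NDUFC2 lie above DMSO with both inhibitors at 48 h, whereas NDUFS1, NDUFV1, UQCRC1 and SDHA lie below it.

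The mitochondrial genes did not follow the nuclear genes. At 12 h all 13 were higher with olaparib (median 0.26) and 12 of 13 with talazoparib (median 0.15), while the nuclear medians were -0.06 and -0.15. The mitochondrial minus the nuclear median, which scaling does not change, was 0.32 and 0.30 at 12 h, 0.26 and 0.07 at 24 h and -0.17 and 0.38 at 48 h for olaparib and talazoparib. Between controls it was -0.25 for DMSO at 24 h against 12 h and -1.01 for DMSO at 12 h against untreated cells. The mitochondrial genes also parted from each other at 48 h with talazoparib. By CPM on library totals the 7 complex I genes had log2 ratios of 0.09 to 0.54, MT-CO1 of 0.20 and MT-CYB of 0.14. Those of MT-CO3, MT-CO2, MT-ATP8 and MT-ATP6 were -0.53, -0.19, -0.46 and -0.30. On the TMM scale, which raised these ratios by 0.27, the complex I genes lay at 0.36 to 0.80. MT-CO2 turned to 0.08, and MT-CO3, MT-ATP8 and MT-ATP6 lay at -0.26, -0.19 and -0.03. MT-CO3, the third subunit of complex IV, was at 2519, 3002 and 3000.2 CPM in the DMSO libraries, 3031, 2839 and 1984 CPM with olaparib and 3004, 2377 and 2079 CPM with talazoparib at 12, 24 and 48 h. It lay above DMSO at 12 h with both inhibitors and below it at 24 and 48 h, with a slope of -0.31 ± 0.14 (adjusted p = 0.0966, edgeR). MT-RNR1 and MT-RNR2 had log2 ratios of 2.04 and 1.16 with talazoparib at 48 h, and their part in these values was not tested.

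Genes around the chain were described from lists, and their counts are to be read against the 3.16% of all genes called higher and 1.01% lower. In the mean test by edgeR's quasi-likelihood method, 1 of 19 mitochondrial transcription and RNA factors fell, TFB2M, and all 19 had values below 0 (median -0.37), with MTERF3 (-0.69 ± 0.16, adjusted p = 0.0504), a transcription termination factor of mitochondria, farthest. Of the 14 complex I assembly factors 0 passed, with 13 below 0 (median -0.28), and FOXRED1 (-0.57 ± 0.18, adjusted p = 0.0736) was farthest. GABPB1, a subunit of the GABP factor, fell among 8 nuclear regulators of respiratory genes (median -0.33), where PPRC1 (-0.59 ± 0.16, adjusted p = 0.0575) was farthest. The 9 mitochondrial DNA replication factors had 1 gene higher, RRM2B (0.55 ± 0.11, adjusted p = 0.043), a ribonucleotide reductase subunit that is a p53 target. Of the 10 nuclear complex IV subunits 0 passed (median 0.05), with COX7B at -0.17. Of the 15 nuclear ATP synthase subunits 0 passed (median -0.06), with ATP5MC1 at -0.38. Of 13 tricarboxylic acid cycle enzymes 0 passed, with 12 below 0 (median -0.19) and IDH3A at -0.58. Of 16 glycolysis enzymes 0 passed (median -0.05), with HK1 at 0.86, and CYC1 and CYCS were at -0.32 and -0.23.

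Talazoparib at 1 µM and olaparib at 10 µM were not given at matched doses. In the test of their difference 0 of 62 subunit genes passed, as did 0.0% of all genes by edgeR (354 genes at an unadjusted p under 0.05, 0 of them subunit genes). The mean log2 effects were 0.31 with olaparib and 0.51 with talazoparib for UQCRB, -0.23 and -0.37 for NDUFS1, and 0.27 and 0.47 for MT-ND3. The differences over the 62 genes ran from -0.71 (NDUFA7) to 0.31 (NDUFV2), with SEs of 0.10 to 0.35 and an adjusted p of at least 0.952 (edgeR, Benjamini-Hochberg).

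The second comparison asks how *EVI1* knockdown changed the genes. With shEVI1-2532, 11 of 13 mitochondrial genes rose and 0 fell, and 9 of 49 nuclear genes rose and 2 fell (edgeR's quasi-likelihood test, Benjamini-Hochberg adjustment over 17595 genes). Over all genes 21.6% rose and 20.5% fell, so the share of nuclear genes that rose was near the background and the share that fell was below it. The median log2 fold change was 0.68 over the mitochondrial and 0.15 over the nuclear genes, against 0.0031 over all genes. On library totals these medians were 0.39 and -0.15 against -0.29, so that the nuclear median changed sign with the scaling and stayed above that of all genes. On library totals 5 mitochondrial genes rose, 2 nuclear genes rose and 10 fell, against 13% of all genes that rose and 32.9% that fell. Without the NTC day 3 library 4 mitochondrial genes and 5 nuclear genes rose and 0 fell, against 15.4% and 15.4% of all genes. Without shEVI1-2532 day 6 5 nuclear genes rose, against 16.2% of all genes. Without shEVI1-2532 day 3 0 nuclear genes fell and without NTC day 6 1 did, against 14.8% and 16.2% of all genes. With both shRNAs as 1 group 0 of the 62 passed, and over all genes 0.654% were higher and 0.523% lower. CPM are on library totals, and TMM raised the log2 ratios of shEVI1-2532 to NTC by 0.25 at day 3 and 0.34 at day 6.

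MT-ND3, a small complex I subunit, was at 218 and 263 CPM with NTC and 508 and 509.7 CPM with shEVI1-2532 at day 3 and day 6. Both knockdown libraries lay above both NTC libraries, and its fold change was 1.38 ± 0.16 (SE, adjusted p = 3.4e-05, edgeR's quasi-likelihood test). MT-ND5, a proton-pumping subunit, was at 979 and 1407 CPM with NTC and 1846 and 1817 CPM with shEVI1-2532 at day 3 and day 6, with a fold change of 0.94 ± 0.14 (adjusted p = 0.000268). Here too the groups did not overlap, and the day 3 difference was the larger. MT-CO1, the catalytic subunit of complex IV, was at 5988 and 8372 CPM with NTC and 10135 and 11261 CPM with shEVI1-2532 at day 3 and day 6 and rose by 0.88 ± 0.14 (adjusted p = 0.000387). MT-CYB, the mitochondrial subunit of complex III, was at 1210.1 and 1848 CPM with NTC and 1722 and 1820.1 CPM with shEVI1-2532 at day 3 and day 6. The NTC library of day 6 exceeded both shEVI1-2532 libraries in CPM. Its fold change was 0.53 ± 0.15 (adjusted p = 0.0122, edgeR), and it no longer passed on library totals (0.24) or without NTC day 3 (0.26). MT-ATP6 rose by 0.50 ± 0.15 on the TMM scale (adjusted p = 0.0194, edgeR), but by CPM it lay below NTC at day 6 (1824 against 1915). The 2 genes that did not pass were MT-CO3 at 0.28 ± 0.14 (adjusted p = 0.139) and MT-ATP8 at 0.30 ± 0.13 (adjusted p = 0.0785). By CPM, all 13 mitochondrial genes were above NTC at day 3 (median 0.62) and 8 of 13 at day 6 (median 0.08). In the same libraries MT-RNR1 stood at 2429 and 2384 CPM, against 725 and 590.0 with NTC, and its part in these values was not tested.

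Among the nuclear genes, the smallest adjusted p-values belonged to UQCRB, SDHD, NDUFB5 and SDHB. On the TMM scale 22 of 30 accessory subunits of complex I lay above 0 (median 0.25) and 5 of 7 core subunits below it (median -0.16), while 7 of 8 nuclear complex III genes (median 0.13) and 2 of 4 complex II genes lay above 0. UQCRB was at 254 and 179 CPM with NTC and 352 and 271 CPM with shEVI1-2532 at day 3 and day 6, above NTC of its day each time, and rose by 0.83 ± 0.13 on the log2 scale after TMM (SE, adjusted p = 0.000286, edgeR's quasi-likelihood test). SDHD, a membrane anchor of complex II, was at 77.2 and 41.3 CPM with NTC and 88.4 and 66.97 CPM with shEVI1-2532 at day 3 and day 6 and rose by 0.74 ± 0.16 (adjusted p = 0.00263), and most of the difference lay at day 6. SDHB, the iron-sulfur subunit of complex II, was at 139 and 109.9 CPM with NTC and 161 and 143 CPM with shEVI1-2532 at day 3 and day 6 and rose by 0.59 ± 0.13 (adjusted p = 0.00349). Complex I accessory subunits that rose on the TMM scale were NDUFB5 (0.65 ± 0.14, adjusted p = 0.00312), NDUFB2 (0.53), NDUFS5 (0.48), NDUFS6 (0.47), NDUFB3 (0.42) and NDUFV3 (0.40). By CPM, however, NDUFB3 lay below NTC at day 3 (113.8 against 118.7) and NDUFV3 at day 6 (48.7 against 49.3). NDUFS1 was at 174 and 135 CPM with NTC and 100.4 and 82.5 CPM with shEVI1-2532 at day 3 and day 6 and fell, with a log2 fold change of -0.46 ± 0.13 (adjusted p = 0.0144). NDUFB4, an accessory subunit of the membrane arm, was at 130.4 and 130.4 CPM with NTC and 71.3 and 84.3 CPM with shEVI1-2532 at day 3 and day 6 and fell, with -0.45 ± 0.15 (adjusted p = 0.0344). Both stood below NTC on each day. The abundant NDUFA4, UQCRH and UQCRC2 had 0.26 ± 0.14, 0.25 ± 0.13 and 0.15 ± 0.13, and the scarce NDUFA13, NDUFA7 and NDUFV2 had -0.55 ± 0.32, -0.46 ± 0.44 and -0.16 ± 0.29, none of which passed. For NDUFA4, UQCRH and UQCRC2 the sign turned on library totals.

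A log2 ratio of CPM on library totals above 0.5 on both days was reached by 1 of the 62 genes, MT-ND3, against 12.2% of all genes. Below -0.5 on both days were NDUFA13, NDUFB4, NDUFC1 and NDUFS1, 4 of 49 nuclear genes and 0 of 13 mitochondrial genes, against 30.4% of all genes. On the TMM scale 5 mitochondrial genes, MT-ND3, MT-ND4L, MT-ND5, MT-ND6 and MT-CO1, and UQCRB lay above 0.5 on both days, against 19.8% of all genes. On that scale 0 of the 62 lay below -0.5 on both days, against 19.2% of all genes. The core minus accessory median of complex I was -0.24 at day 3 and -0.45 at day 6. The mitochondrial minus nuclear median was 0.78 at day 3 and 0.20 at day 6, and 0.96 between the NTC libraries.

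**Figure D5:**
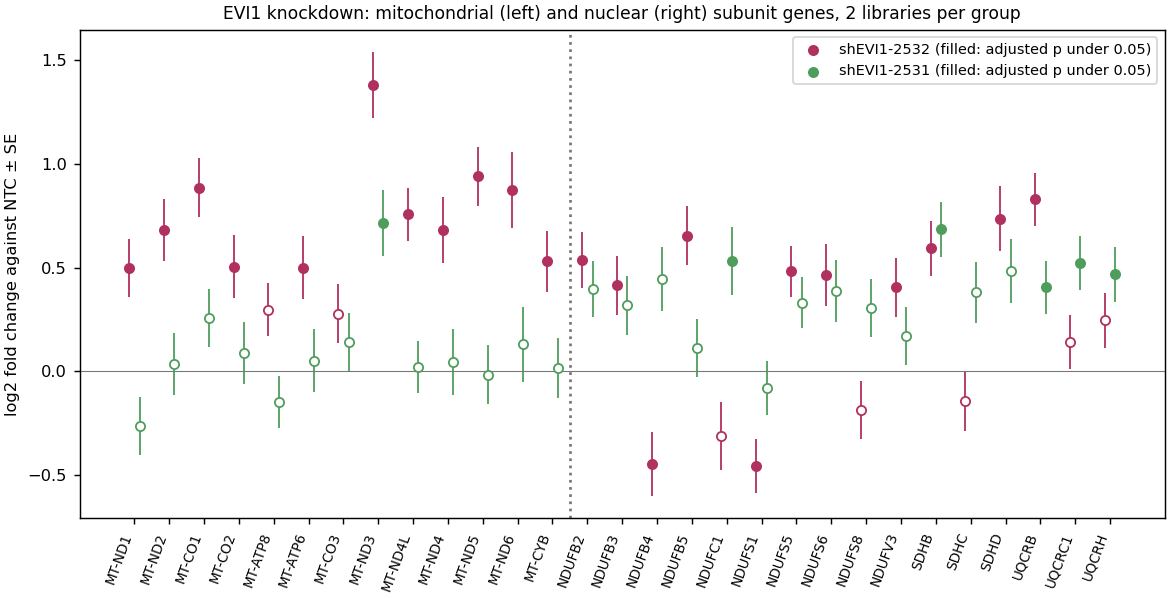
Log2 fold change ± SE against NTC with shEVI1-2532 (red) and shEVI1-2531 (green), 2 libraries per group, for the 13 mitochondrial genes in genome order (left) and, of the nuclear genes, those with an adjusted p under 0.05 with shEVI1-2532 or between the shRNAs and the 4 with the smallest p with shEVI1-2531 (right). Filled points have an adjusted p under 0.05. MT-ND3 is highest at 1.38 with shEVI1-2532, and NDUFS1 is lowest at -0.46.

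With shEVI1-2531, 7 nuclear genes rose and 0 fell, against 9.74% of all genes higher and 8.13% lower. They included SDHB, UQCRC1, UQCRH and NDUFC1, and the nuclear median was 0.22 against 0.0058 over all genes. SDHB was at 139 and 109.9 CPM with NTC and 201 and 158 CPM with shEVI1-2531 at day 3 and day 6 and rose by 0.68 ± 0.13 (SE, adjusted p = 0.00396, edgeR's quasi-likelihood test). Both libraries lay above both NTC libraries. UQCRC1 was at 263 and 278 CPM with NTC and 373 and 323 CPM with shEVI1-2531 at day 3 and day 6 and rose by 0.52 ± 0.13 (adjusted p = 0.0166). All 8 nuclear complex III genes and all 4 complex II genes had values above 0 on the TMM scale, with medians of 0.33 and 0.43. Of the mitochondrial genes MT-ND3 alone passed, at 0.72 ± 0.16 (adjusted p = 0.00856), with 399.6 and 307 CPM at day 3 and day 6. The mitochondrial median was 0.05, and by CPM it was 0.16 at day 3 and -0.34 at day 6. Scaled to library totals, 1 nuclear gene passed, against 5.88% of all genes higher, and the nuclear median was 0.06 against -0.15 over all genes. Without shEVI1-2531 day 3 1 nuclear gene passed, without NTC day 3 2, without NTC day 6 4 and without either shEVI1-2532 library 11. Over all genes the shares called higher were 6.22%, 5.75%, 6.91% and, without either shEVI1-2532 library, 11.4%. MT-ND3 no longer passed without NTC day 3 (0.47) or without shEVI1-2531 day 3 (0.42).

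The shRNAs differed in the mitochondrial genes. In the test of shEVI1-2532 minus shEVI1-2531, which share their NTC libraries, 11 of 13 mitochondrial genes were higher and 0 lower, and 2 nuclear genes were higher and 4 lower, against 12.8% and 12.7% of all genes. MT-ND5 (0.95 ± 0.14, adjusted p = 0.000629), MT-ND4L (0.73 ± 0.13, adjusted p = 0.00151) and MT-ND1 (0.76 ± 0.14, adjusted p = 0.00225, all edgeR) led, and MT-CO2 and MT-CO3 did not pass. MT-ND1 was at 731 and 1121 CPM with NTC, 1001 and 1092 CPM with shEVI1-2532 and 626 and 735 CPM with shEVI1-2531 at day 3 and day 6. It was lowest with shEVI1-2531 on both days, while NTC lay below shEVI1-2532 at day 3 and above it at day 6. Of the nuclear genes NDUFB5 and UQCRB were higher. NDUFB4 (-0.89 ± 0.16, adjusted p = 0.00154), NDUFC1 (-0.84 ± 0.17, adjusted p = 0.00324), SDHC (-0.52 ± 0.15, adjusted p = 0.0211) and NDUFS8 (-0.49) were lower. NDUFB4 was at 130.4 and 130.4 CPM with NTC, 71.3 and 84.3 CPM with shEVI1-2532 and 174 and 143 CPM with shEVI1-2531 at day 3 and day 6. It stood above NTC with shEVI1-2531 and below it with shEVI1-2532 on both days. NDUFC1 was at 45.97 and 41.4 CPM with NTC, 29.2 and 28.02 CPM with shEVI1-2532 and 67.4 and 46.7 CPM with shEVI1-2531 at day 3 and day 6, in the same order. SDHC, the other anchor of complex II, was at 128 and 107 CPM with shEVI1-2532 and 223 and 155 CPM with shEVI1-2531.

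Of the lists around the chain, read against 21.6% of all genes higher and 20.5% lower with shEVI1-2532, the mitochondrial transcription and RNA factors fell where they passed. In edgeR's test 0 rose and 7 of 19 fell (PNPT1, TFAM, TRMT10C, MTERF3, SUPV3L1, TEFM and TFB2M), with a median of -0.32 and TFAM (-1.15 ± 0.19, adjusted p = 0.000489), which packages and transcribes mitochondrial DNA, farthest. TFAM was at 82.02 and 46.2 CPM with NTC, 23.7 and 21.9 CPM with shEVI1-2532 and 52.1 and 46.7 CPM with shEVI1-2531. With shEVI1-2531, where 9.74% of all genes were higher and 8.13% lower, 0 of the 19 passed (median 0.02). Of 14 complex I assembly factors 1 rose and 3 fell with shEVI1-2532 (median -0.25), with FOXRED1 (-1.13 ± 0.16, adjusted p = 0.000153) farthest. Of 10 nuclear complex IV subunits 6 rose and 0 fell (median 0.36), led by COX7C (1.62 ± 0.14, adjusted p = 3.44e-06), and 3 rose with shEVI1-2531. Of 15 nuclear ATP synthase subunits 4 rose and 2 fell, with ATP5MC1 (-0.65 ± 0.13, adjusted p = 0.00168) farthest. Of 9 DNA replication factors 2 rose and 1 fell, with TK2 at 0.98. Of 8 nuclear regulators 1 rose and 2 fell, with PPRC1 at -0.82. Of 13 tricarboxylic acid cycle enzymes 1 rose and 2 fell, with SUCLG2 at -0.52, and of 16 glycolysis enzymes 3 rose and 3 fell, with ALDOC at -2.75. CYCS and CYC1 were at -0.33 and 0.03 and did not pass. With shEVI1-2531, 1 rose and 0 fell in each of the ATP synthase subunits (ATP5F1B), assembly factors (NDUFAF1), DNA replication factors (TOP1MT) and nuclear regulators (ESRRA), 2 rose and 1 fell among the glycolysis enzymes, and 0 passed among the tricarboxylic acid cycle enzymes.

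PARPi and *EVI1* knockdown share no library, and their values for the nuclear genes can be set side by side. UQCRB had the largest slope under PARPi (0.46) and the largest fold change with shEVI1-2532 (0.83), NDUFB5 had 0.38 and 0.65, NDUFB3 0.39 and 0.42, and NDUFS1 -0.24 and -0.46. NDUFC2 and NDUFA2 did not share this, with slopes of 0.45 and 0.38 and shEVI1-2532 values of -0.05 and -0.05. NDUFS6 and SDHD had opposite directions by CPM on library totals. Their log2 ratios were -0.74 to -0.03 and -0.42 to -0.05 in the 6 inhibitor libraries. In the 2 shEVI1-2532 libraries they were 0.03 to 0.33 and 0.19 to 0.70. On the TMM scale NDUFS6 stayed lower in all 6 inhibitor libraries and SDHD in 4. Across the 49 nuclear genes the PARPi slope and the shEVI1-2532 fold change had a Spearman's rho of 0.46 (Pearson's r = 0.49), and the slope and the shEVI1-2531 fold change one of 0.14 (r = 0.16). Over the 46 genes with 500 counts or more in every library these were 0.40 (r = 0.43) and 0.03 (r = 0.02). Genes are not independent replicates, transcript length and base composition are shared between both axes, and these values describe the genes only. The same correlations over all genes were not computed, so no background stands beside them.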

How the data were processed

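RNA-Seq of MUTZ-3 cells was deposited by the authors as raw counts per gene and as TPM, 1 library per condition. The submitters' processing notes name STAR, Picard, featureCounts and hg38/GRCh38, with versions, annotation release and strand setting not given in the sources used here. Libraries were made with a stranded mRNA kit. Deposited counts were used as they were, and the deposited TPM served only to check the tables. No 2 libraries were identical, and genes needed 10 counts in at least 3 libraries. Tests used edgeR 4.0.16 (R 4.3.3) with TMM, quasi-likelihood fits and Benjamini-Hochberg adjustment over all genes tested at 0.05. PARPi was fitted over 9 libraries with time point as a factor for the mean effect and log2 hours for the slope, and knockdown over 6 libraries with day as a factor, which left 4, 2 and 2 residual degrees of freedom. These replace replicates by time points and days. Log2 ratios of single libraries carry 95% Poisson intervals, which cover counting error only. In data simulated from these libraries 200 genes were changed 2-fold, and for the slope test 2-fold per doubling of hours. The PARPi mean test recovered 59% of them (16939 genes, 4.84% false calls). The slope test recovered 75% (16968 genes, 4.46% false) and the shEVI1-2532 test 48.5% (17258 genes, 7.62% false). Recovery of smaller changes, such as the log2 slope of 0.46 for UQCRB, was not simulated. All genes but these 200 were drawn without the tested effect. In the real data the shEVI1-2532 test called 21.6% of genes higher and 20.5% lower, so the simulated shares need not hold there. Named with values were the 3 genes of smallest p in each direction of each test among those with an adjusted p under 0.05, the gene of each role and list farthest from 0 in the PARPi mean and shEVI1-2532 tests, and the 3 most and 3 least abundant nuclear genes. Other genes named (NDUFB5, NDUFA2, NDUFV1, MT-CO3, MT-CYB, NDUFS6 and the further called genes among them) were chosen after their values were seen. DESeq2 1.42.0, other scalings, filters and left-out libraries were alternatives. Exon lengths came from GENCODE v29, in which 40 of 62 genes have the same span. Members and gene lists were chosen with earlier results of these data known. In the list of mitochondrial transcription and RNA factors 19 of 20 genes were matched. 1 gene of the group is not reported by name here.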

Additional observations from a re-analysis of the deposited data

Results flagged for a closer look

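The test of shEVI1-2532 against shEVI1-2531 (edgeR's quasi-likelihood test, adjusted p under 0.05) set 17 subunit genes apart, each as a log2 difference. Of the mitochondrial complex I genes these were MT-ND5 (0.95), MT-ND1 (0.76), MT-ND6 (0.74), MT-ND4L (0.73), MT-ND3 (0.66), MT-ND2 (0.65) and MT-ND4 (0.63). MT-CO1 (0.63), MT-CYB (0.51), MT-ATP6 (0.45) and MT-ATP8 (0.445) followed. Of the nuclear genes NDUFB5 (0.54) and UQCRB (0.42) were higher with shEVI1-2532, and NDUFB4 (-0.89), NDUFC1 (-0.84), SDHC (-0.52) and NDUFS8 (-0.49) were lower. Each shRNA had 2 libraries, from different days, and the model also held the NTC libraries.

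The test of change with time put 5 subunit genes past the threshold, with the inhibitor effect differing between 12, 24 and 48 h by a log2 value per doubling of time of 0.455 for UQCRB, 0.45 for NDUFC2, 0.39 for NDUFB3, 0.38 for NDUFB5 and 0.38 for NDUFA2. A share of 5 in 49 nuclear genes lies near that of all genes in the same test.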

How the results depend on the processing

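Each condition was 1 library with no replicate number, and the time point or day in each model tied treated libraries to their controls. With the time point left out of the PARPi mean, 16 of all genes were higher, 0 lower, and 0 of the 62 passed. Of the values that answer a comparison, 300 stayed within their limits under the alternatives and 64 moved. A count stayed if it equalled its main value or lay within a set factor of it. A median stayed if it moved by less than the spread of the single-library medians. Counts of 0 that remained 0 are among the 300. Of the single genes named, 402 values kept direction and call, 45 lost the call, 4 gained it and 18 reversed. The causes were not tested.

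The PARPi mean called 0 nuclear genes higher (0 to 1 leaving out a time point). The slope called 5 nuclear genes higher: 2 at a threshold of 0.01, 0 on library totals, 0 on totals outside mitochondrial DNA, and 0 to 7 leaving out a library. Nuclear genes lower went from 0 to 2 on either total and 0 to 1 leaving out a library, and mitochondrial genes lower from 0 to 1 in the same settings. The nuclear median slope, 0.09, was -0.020 and -0.022 on the 2 totals and -0.067 to 0.25 leaving out a library, and the mitochondrial one -0.15 to 0.17.

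With shEVI1-2532, 9 nuclear genes higher became 2 on library totals, 3 outside mitochondrial DNA, 0 with both shRNAs as 1 group and 5 to 10 leaving out a library. The 2 lower became 0 at 0.01, 10 on either total, 0 with both shRNAs and 0 to 2. The 11 mitochondrial genes higher became 7 at 0.01, 5 on either total, 0 with both shRNAs and 4 to 11. The nuclear median, 0.15, was -0.15 on library totals, -0.13 outside mitochondrial DNA, 0.12 with upper quartiles, 0.12 with no filter, 0.19 with both shRNAs and 0.073 to 0.26 leaving out a library. With shEVI1-2531, 7 nuclear genes higher became 1 at 0.01, 1 on either total, 4 with 50 counts in every library, 11 with its own 4 libraries and 1 to 11 leaving out a library. Its nuclear median, 0.22, was 0.063 and 0.064 on the 2 totals and 0.12 to 0.35, and its mitochondrial count 0 to 1. With TMM sizes the median single-library ratios of the nuclear genes became 0.15 (from -0.14) for shEVI1-2532 and 0.22 (from 0.06) for shEVI1-2531.

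Reversed in the PARPi mean, leaving out time points (lowest and highest values), were MT-ATP8 (-0.20 to 0.0055), NDUFA4 (-0.063 to 0.26), NDUFA7 (-0.36 to 0.067), SDHA (-0.26 to 0.066), UQCRH (-0.068 to 0.14) and NDUFA13 (-0.042 to 0.091). NDUFA13 also reversed on library totals (-0.037) and outside mitochondrial DNA (-0.034), and UQCRH on both (-0.0096 and -0.0066). With shEVI1-2532, on library totals and outside mitochondrial DNA, NDUFA4 (-0.033 and -0.015), UQCRC2 (-0.14 and -0.12) and UQCRH (-0.050 and -0.033) reversed, as did NDUFB4 with both shRNAs (0.065) and NDUFV2 leaving out libraries (-0.40 to 0.084). NDUFA7, NDUFA13 and NDUFV2 hold few counts, which limits what can be seen for them.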
